A study of Mus musculus with 23 samples.

Results

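The genes described here are 40 genes of glycolysis and of the cellular response to low oxygen, measured in mouse medulloblastoma allografts treated with a Smoothened antagonist. They are a list of gene symbols, drawn up with earlier results of these data known, and every probe set named for a listed gene was looked up among the 45101 on the array. Of the 40 genes, 37 had 1 or more probe sets named for that gene alone, 80 probe sets in all, and 36 genes with 72 probe sets passed the filter on low signal, out of 14980 genes and 35069 probe sets tested. Gpi1 and Eno1 had no probe set under these symbols and were dropped. Bnip3l was named only together with other genes, and Gapdh only by 3 control probe sets and by probe sets naming several genes, so neither was tested. Each tested gene was represented by its probe set with the highest mean signal.

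The tumours carried the genotype Ptch+/-HIC+/-, with 1 copy of Ptch1, the receptor that restrains Hedgehog signalling, disrupted. Cells dissociated from such tumours were grown under the skin of the flank of Harlan nu/nu mice, which lack a thymus, so each sample could hold host stroma, vessels and muscle of the same species, and none grew in the brain. The drug groups received NVP-LDE225 (LDE225AZ in the labels), which blocks Smoothened, the transducer that Ptch1 restrains. Sensitive tumours were taken 4, 8, 24 and 48 h after 40 mg/kg, with 3 arrays at each time. Resistant tumours under 160 mg/kg and under 40 mg/kg gave 3 arrays each, with no time stated. Vehicle-treated tumours gave 2 arrays at 4 h, called 4 h vehicle below, and 3 arrays with no stated time, called vehicle below. All 23 arrays thus shared the tumour genotype and the host strain, and animal ages were not stated.

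Glycolysis turns glucose into pyruvate, and lactate dehydrogenase and the monocarboxylate transporters dispose of it as lactate. Hypoxia-inducible factor, a dimer whose HIF1A subunit is hydroxylated and destroyed when oxygen is present, binds hypoxia response elements and raises many genes of this pathway when oxygen is short. Hedgehog signalling in granule neuron progenitors, the cells from which such tumours arise, is known to raise hexokinase 2 and aerobic glycolysis.

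Promoters of members are shown here because hypoxia response elements and E-boxes were looked for in them. A RefSeq window of 250 bases before to 50 after the transcription start (build GRCm38.p6) was held for 37 of the 40 genes, and Slc2a3, Ndrg1 and Bnip3l had no entry. The core of the element was searched as ACGTG or GCGTG on both strands, and the E-box CACGTG contains ACGTG on either strand. A core was present in the windows of 34 of these 37 genes (91.9%), against 52.3% of 17486 protein-coding genes and 46.7% of all 27018 genes. A gene could have several windows and counted if any of them matched. By window the core was in 43 of 54 (79.6%), against 49.3% of 21255 windows of protein-coding genes. The members were listed as genes of this response, and the sets were not matched for base content. The GLI motif GACCACCCA was in 0 of the 37 and in 0.289% of all genes. A match describes these letters and does not show binding. The 4 windows printed belong to Hk2 (chr6:82774405-82774704, minus strand), Slc2a1 (chr4:119108495-119108794, plus strand), Ldha (chr7:46845554-46845853, plus strand, 1 of 2 windows) and Egln3 (chr12:54203825-54204124, minus strand), genes of glucose entry, lactate handling and oxygen sensing that were each called lower at 24 and 48 h below. They read 5′ to 3′ on the gene's strand, with each core or E-box in capitals.
Hk2: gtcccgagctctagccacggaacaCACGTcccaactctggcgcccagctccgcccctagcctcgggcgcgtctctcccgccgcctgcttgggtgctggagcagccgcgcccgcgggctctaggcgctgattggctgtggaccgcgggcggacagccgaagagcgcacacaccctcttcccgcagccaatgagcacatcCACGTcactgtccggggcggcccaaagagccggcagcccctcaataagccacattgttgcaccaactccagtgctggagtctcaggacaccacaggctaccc
Slc2a1: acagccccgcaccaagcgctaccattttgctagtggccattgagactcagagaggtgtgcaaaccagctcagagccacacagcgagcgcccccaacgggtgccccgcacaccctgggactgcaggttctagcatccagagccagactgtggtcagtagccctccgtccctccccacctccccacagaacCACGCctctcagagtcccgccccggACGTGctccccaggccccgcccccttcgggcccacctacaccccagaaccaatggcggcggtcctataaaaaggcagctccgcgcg
Ldha: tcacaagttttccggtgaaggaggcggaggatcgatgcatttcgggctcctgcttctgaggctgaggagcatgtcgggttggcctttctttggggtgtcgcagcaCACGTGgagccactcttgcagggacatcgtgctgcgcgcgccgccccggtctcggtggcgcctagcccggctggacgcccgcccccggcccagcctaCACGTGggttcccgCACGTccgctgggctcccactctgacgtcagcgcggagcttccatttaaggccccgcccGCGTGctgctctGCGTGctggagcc
Egln3: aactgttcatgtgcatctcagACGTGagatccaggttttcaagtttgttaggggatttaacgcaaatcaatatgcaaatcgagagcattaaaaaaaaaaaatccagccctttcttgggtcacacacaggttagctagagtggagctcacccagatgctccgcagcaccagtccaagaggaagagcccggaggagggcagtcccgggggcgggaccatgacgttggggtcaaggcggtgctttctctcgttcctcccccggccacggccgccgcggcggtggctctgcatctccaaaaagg
The Ldha window held 7 matches on the 2 strands, 4 of them from E-boxes read on both strands, while the Hk2 and Slc2a1 windows held 2 each and the Egln3 window held 1.

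Median signal per array lay between 33.9 and 46.7, and the number of arrays limits precision. The labels do not say whether replicates came from separate animals, so a p-value covers the variation among these arrays, which may be technical. For 6 of 12 arrays of sensitive drug-treated tumours the source name says resistant, and the description label was followed. Of 14 markers of granule neuron progenitors and medulloblastoma 13 were measured, and 12 of them lay above their array's 40th percentile on all 23 arrays. The exception was Gli1, above it on 16, which is induced by Hedgehog signalling and is its usual readout, and which fell with drug by a log2 change of -2.42 at 4 h and -4.65 at 48 h. Among the marker sums that moved with the groups, 19 measured genes of skeletal muscle summed to 14018 to 19077 in the 24 h tumours, 2320 to 18744 in the 48 h tumours and 1119 to 14399 in vehicle tumours, and 14 macrophage genes to 4111 to 6888 at 24 h, 31648 to 42369 at 48 h and 1991 to 3443 in vehicle tumours. Actin 3′ over 5′ signal as a log2 ratio, which rises as RNA degrades, averaged 1.65 ± 0.219 at 24 h, 0.918 ± 0.0666 at 48 h and 1.04 ± 0.0394 in vehicle tumours (SD, n = 3 each).

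Gene signals, in the arbitrary units of the authors' array scaling, were compared as log2(signal + 16), a scale that understates how far dim genes moved, and a gene was called when limma's p, adjusted over all tested probe sets, was under 0.05. At 4 h 1 of the 36 genes was called lower and 0 higher, and at 8 h 2 were lower and 0 higher, both against 4 h vehicle. At 24 h 14 were lower and 3 higher, and at 48 h 17 were lower and 8 higher, both against vehicle. The background over all 14980 genes was 0.26% lower and 0.0868% higher at 4 h, 2.48% lower and 2.12% higher at 8 h, 14.4% lower and 19.7% higher at 24 h, and 21.3% lower and 25.1% higher at 48 h. Among the 36 genes 38.9% were lower at 24 h and 47.2% at 48 h, while 8.33% and 22.2% were higher. All 24 h arrays lay below all vehicle arrays for 14 of the 36 and above for 6, against 19.9% and 28.6% of all genes. At 48 h this was so for 18 and 7, against 25.8% and 30.4%. The median change of the 36 was 0.05 at 4 h, -0.20 at 8 h, -0.37 at 24 h and -0.54 at 48 h, beside medians over all genes of 0.01, 0.04, 0.10 and 0.06. The 4 and 8 h comparisons share the same vehicle arrays, and so do the 24 h, 48 h and resistant comparisons.

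**Figure D1:**
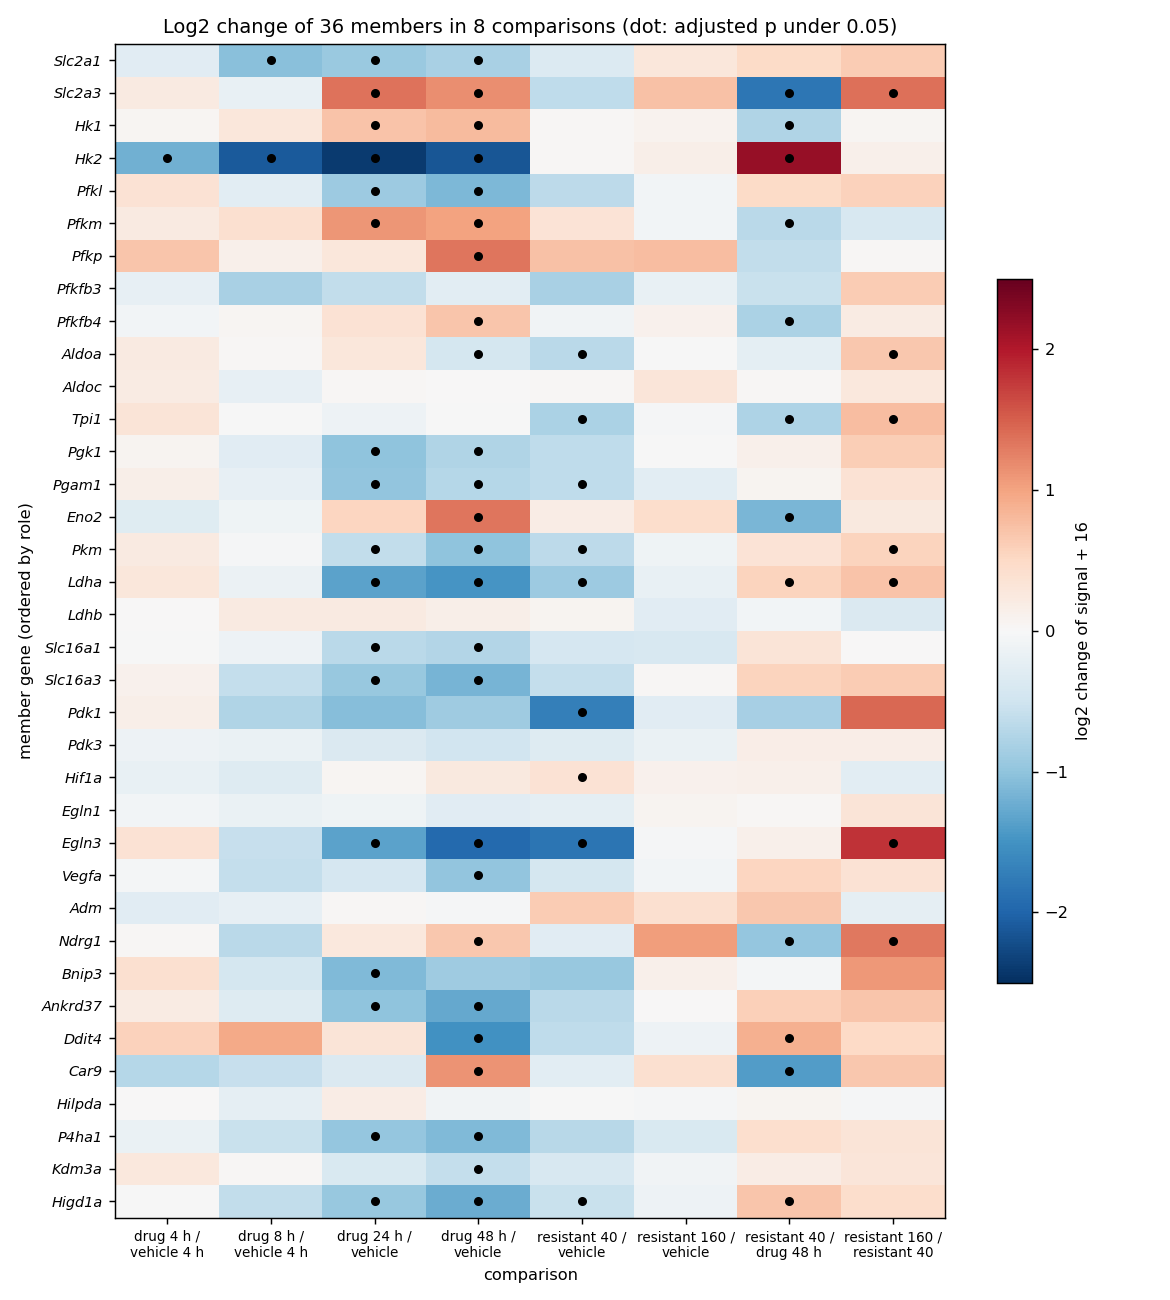
Log2 change (colour) of the 36 tested genes (rows) in 8 comparisons (columns), with a dot where limma's adjusted p was under 0.05. Hk2 is lower in all 4 drug times, most dots of lower genes sit in the 24 h and 48 h columns, and the column of 160 mg/kg resistant tumours against vehicle holds 0 dots.

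The members called at 4 and 8 h were genes of glucose entry. Hexokinase 2, the inducible enzyme that traps glucose as glucose 6-phosphate, fell in sensitive tumours at every time, while hexokinase 1, its constitutive relative, rose at 24 and 48 h. Hk2 signal was 557, 481 and 390.5 at 4 h and 256, 222 and 259 at 8 h, against 1193 and 1016 in 4 h vehicle tumours. It was 160.0, 171 and 141 at 24 h and 217, 204 and 153 at 48 h, against 906, 852 and 925 in vehicle tumours. Every drug array at all 4 times lay below every array of its vehicle group, and the 24 h and 48 h arrays lay lower than the 4 h arrays. The log2 change of Hk2 was -1.20 at 4 h (SE 0.24, adjusted p = 0.023), -2.10 at 8 h (adjusted p = 6.0e-06), -2.39 at 24 h (adjusted p = 7.1e-09) and -2.15 at 48 h (SE 0.22, adjusted p = 2.1e-08). Between 8 h and 4 h it differed by -0.90, which was not called (adjusted p = 0.062). This difference was called in a fit to the compared arrays alone and with the replicate number as a block (adjusted p = 0.0021 to 0.031). The 4 h call was lost without 4 h replicate 2, 4 h replicate 3, 4 h vehicle replicate 1 or 4 h vehicle replicate 2 (adjusted p up to 0.35), and with a variance prior without trend or the run of title identifiers as a block (adjusted p up to 0.42), whereas the 8, 24 and 48 h calls held under every other setting tried and without each array in turn. In resistant tumours Hk2 signal was 1653, 945 and 633 at 160 mg/kg and 1082, 741 and 956 at 40 mg/kg, spanning the vehicle values. Neither dose was called against vehicle, with log2 changes of 0.16 (95% interval -0.29 to 0.60) at 160 mg/kg and 0.034 (-0.41 to 0.48) at 40 mg/kg. In bulk tumour RNA, fewer cells of a type and less RNA per cell cannot be told apart.

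Hk1 signal was 226, 201 and 199 at 4 h and 256, 206 and 291 at 8 h, against 236 and 172 in 4 h vehicle tumours. It was 339, 329 and 358 at 24 h and 372, 339 and 373 at 48 h, against 199, 176 and 233 in vehicle tumours, with all 6 late arrays above all 3 vehicle arrays. Its log2 change was 0.72 at 24 h (adjusted p = 0.00088) and 0.79 at 48 h (adjusted p = 0.00018). A second Hk1 probe set gave 0.12 and 0.63 and was not called at either time (adjusted p = 0.82 and 0.12). Resistant tumours had Hk1 signals of 194, 212 and 243 at 160 mg/kg and 265, 176 and 189 at 40 mg/kg, within the range of the drug-free and early arrays.

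Slc2a1, the widely expressed glucose transporter GLUT1, fell at 8, 24 and 48 h. Its signal was 324, 331 and 205 at 4 h and 157, 159.6 and 165 at 8 h, against 487 and 244 in 4 h vehicle tumours. The 8 h arrays lay below both vehicle arrays while the 4 h arrays overlapped them. Signal was 116, 144 and 137 at 24 h and 179, 119.8 and 134 at 48 h, against 367, 183 and 269 in vehicle tumours, with no overlap between either late group and vehicle. The log2 change was -1.04 at 8 h (adjusted p = 0.030), -0.92 at 24 h (adjusted p = 0.0051) and -0.82 at 48 h (adjusted p = 0.0084), and both further probe sets were called lower at 24 and 48 h. The 8 h call was lost without 8 h replicate 1, 8 h replicate 2, 8 h replicate 3 or 4 h vehicle replicate 1 (adjusted p up to 0.52), and with a variance prior without trend, the replicate number as a block, the run of title identifiers as a block or the most variable probe set (adjusted p up to 0.53). The late calls were lost without vehicle replicate 1 (adjusted p = 0.050) at 24 h and without vehicle replicate 1 (adjusted p = 0.077) at 48 h. Resistant tumours had 286, 396 and 299 at 160 mg/kg and 158, 204 and 259 at 40 mg/kg, and the higher-dose arrays all lay above the lower-dose ones, a difference that was not called (log2 change 0.63, adjusted p = 0.23).

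Slc2a3, the high-affinity transporter GLUT3 of neurons, went the other way at the late times. Its signal was 346, 306 and 162 at 4 h and 186, 199 and 189 at 8 h, against 234 and 205 in 4 h vehicle tumours. It was 301, 325 and 292 at 24 h and 284, 255 and 254 at 48 h, against 102, 86.2 and 148 in vehicle tumours, and all late arrays lay above all vehicle arrays. The log2 change was 1.36 at 24 h (adjusted p = 5.5e-05) and 1.16 at 48 h (adjusted p = 0.00020). The 4 h vehicle arrays were themselves above vehicle (log2 change 0.91, adjusted p = 0.24), and against them neither late change was called (adjusted p = 0.22 at 24 h and 0.50 at 48 h). Of 2 further Slc2a3 probe sets, 1 was called higher at both times (0.64 and 0.64) and 1 at neither (-0.28 and 0.40). The 12 measured neuron markers summed to 11905 to 13561 at 24 h and 19732 to 21136 at 48 h, against 3225 to 3330 in vehicle tumours, and their part in the change of Slc2a3 was not tested. In resistant tumours Slc2a3 was 167, 239 and 178 at 160 mg/kg and 95.7, 43.9 and 62.1 at 40 mg/kg, with the 2 doses not overlapping.

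**Figure D2:**
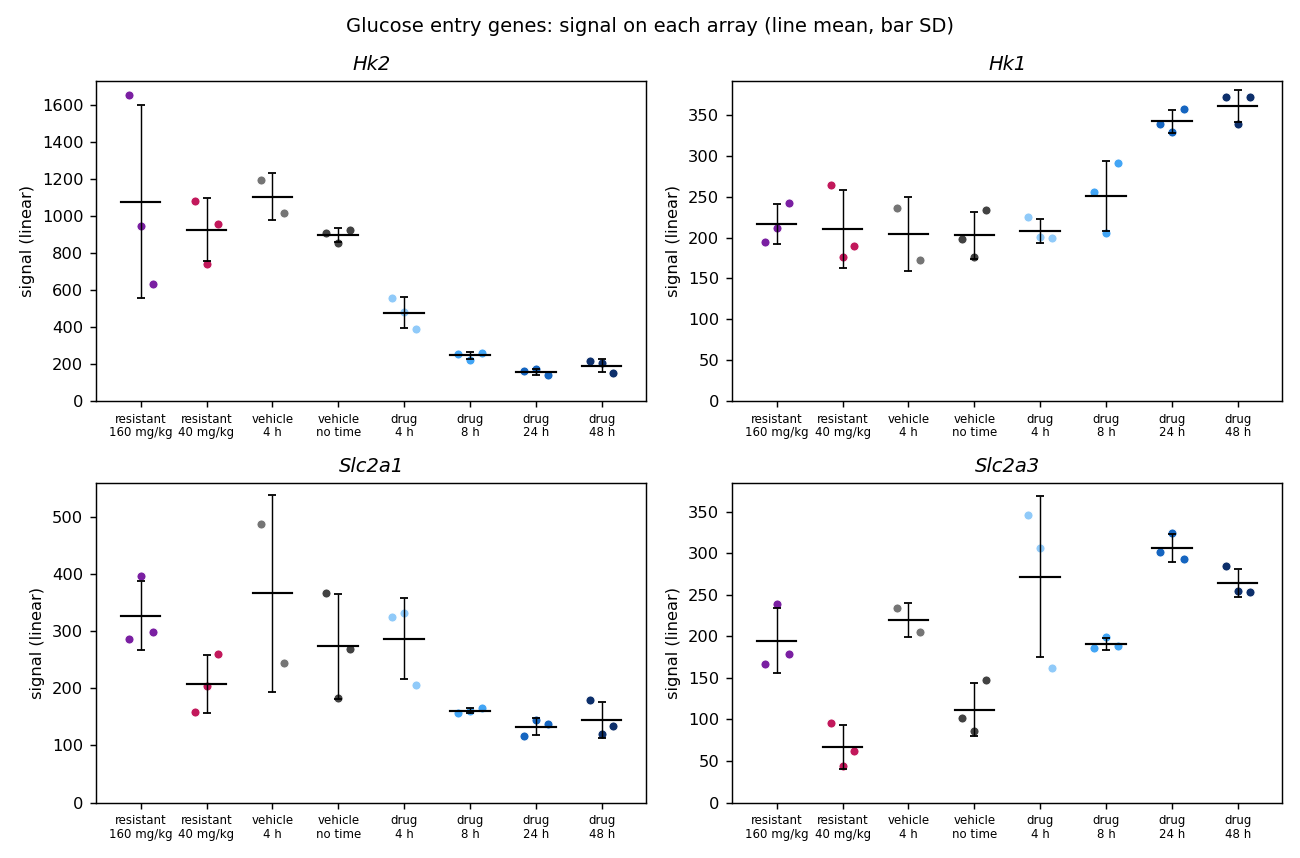
Signal (linear axis from 0, arbitrary units) of Hk2, Hk1, Slc2a1 and Slc2a3 on each of the 23 arrays, by group, with the group mean as a line and the SD as a bar. Hk2 lies between 141 and 259 on the 8, 24 and 48 h arrays and between 633 and 1653 on the resistant arrays, while Hk1 and Slc2a3 lie above vehicle at 24 and 48 h.

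In upper glycolysis, the steps that spend energy before the sugar is split, the 8 tested genes moved in both directions. At 24 h 1 was higher and 1 lower, and at 48 h 3 were higher and 2 lower. Over all genes 19.7% were higher and 14.4% lower at 24 h, and 25.1% and 21.3% at 48 h. These counts out of 8 lie near those shares. The 3 phosphofructokinase genes, whose products form the enzyme that commits sugar to the pathway, differed among themselves. Pfkl, the liver-type subunit, had signals of 976, 657 and 463 at 4 h and 423, 414 and 451 at 8 h, against 680.1 and 396 in 4 h vehicle tumours. It was 270.0, 278 and 283 at 24 h and 230.3, 231 and 247 at 48 h, against 806, 372 and 508 in vehicle tumours, and fell at both late times with no overlap. Its log2 change was -0.91 (adjusted p = 0.0038) at 24 h and -1.13 (adjusted p = 0.00032) at 48 h. In resistant tumours Pfkl was 472, 638 and 433 at 160 mg/kg and 316, 347 and 347 at 40 mg/kg, and the 40 mg/kg arrays all lay below vehicle without a call (log2 change -0.64, adjusted p = 0.096). The call was made with all 5 vehicle arrays as control and without vehicle replicate 2 (adjusted p = 0.026 to 0.047). 

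Pfkm, the muscle-type subunit, rose at both late times. Its signal was 258, 237 and 270.1 at 4 h and 274, 312 and 288 at 8 h, against 213 and 221 in 4 h vehicle tumours. It was 422, 436 and 409 at 24 h and 384, 462 and 351 at 48 h, against 135, 236 and 209 in vehicle tumours, with no overlap. The log2 change was 1.10 (adjusted p = 1.7e-05) at 24 h and 1.01 (adjusted p = 2.6e-05) at 48 h. Resistant tumours had 150.4, 194 and 198 at 160 mg/kg and 224, 203 and 314 at 40 mg/kg, and neither dose was called against vehicle. In the array order used above for Pfkm, muscle marker sums were 14018.5, 18813 and 19077 at 24 h and 8016, 18744 and 2320 at 48 h. In vehicle tumours they were 1325, 14399 and 1119. The part of muscle in the change was not tested.

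Pfkp, the platelet-type subunit, rose at 48 h only by its calls, and the step between 24 and 48 h was itself called. Its signal was 121, 87.6 and 96.3 at 4 h and 78.3, 51.6 and 59.6 at 8 h, against 82.4 and 36.3 in 4 h vehicle tumours. It was 111, 85.3 and 74.6 at 24 h and 187, 170.1 and 259 at 48 h, against 84.4, 48.7 and 81.6 in vehicle tumours, so the 48 h arrays lay above all arrays of both other groups. The log2 change at 48 h was 1.34 against vehicle (adjusted p = 0.00017) and 1.05 against 24 h (adjusted p = 0.0048), while the 24 h change was 0.29 (adjusted p = 0.44). Resistant tumours had 136, 84.0 and 189 at 160 mg/kg and 134, 104 and 143 at 40 mg/kg, which overlapped vehicle at 160 mg/kg and lay above it at 40 mg/kg, with neither called. The 40 mg/kg change was called with the replicate number as a block, with all 5 vehicle arrays as control and with the 4 h vehicle as control (adjusted p = 0.020 to 0.037).

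Among the other upper members, Pfkfb4, an enzyme that makes the activator of phosphofructokinase, rose at 48 h (log2 change 0.69, adjusted p = 0.00073), while its relative Pfkfb3 gave -0.26 (adjusted p = 0.56). Aldoa, the main aldolase of most tissues, averaged 5540.2 ± 562 at 24 h and 3367 ± 183 at 48 h, against 4683 ± 1436 in vehicle tumours (SD, n = 3 each). It was lower at 48 h than at 24 h (log2 change -0.71, adjusted p = 0.0041) and than in vehicle tumours (log2 change -0.43, adjusted p = 0.049). The call against vehicle was lost without 48 h replicate 1, 48 h replicate 3, 48 h replicate 4, vehicle replicate 1 or vehicle replicate 3 (adjusted p up to 0.39), and with an offset of 1, no filter, quantile normalization, a variance prior without trend, a fit to the compared arrays alone, the replicate number as a block, the most variable probe set or the 4 h vehicle as control (adjusted p up to 0.20). At 24 h Aldoa was not called against vehicle, and its arrays overlapped vehicle. Another Aldoa probe set read 3144.7, 3559.2 and 3054 at 24 h, all above the 3005.7, 1553.1 and 2103.9 of vehicle tumours. The remaining Aldoa probe sets overlapped vehicle at 24 h. Muscle marker sums were 14018 to 19077 at 24 h and 2320 to 18744 at 48 h, and their part in Aldoa was not tested. Tpi1, triose phosphate isomerase, gave -0.13 at 24 h and -0.016 at 48 h, and Aldoc, the brain aldolase, 0.03 at 24 h, none of them called. For Aldoc 16 of 23 arrays were above their 40th percentile.

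In lower glycolysis, the steps that yield energy and pyruvate, 3 of 4 tested genes fell at 24 and at 48 h. The other, Eno2, rose at 48 h. Over all genes 14.4% were lower at 24 h and 21.3% at 48 h, when 25.1% were higher. Pkm, pyruvate kinase of most tissues and tumours, had signals of 4303, 3594 and 3262 at 4 h and 3106, 3008 and 3192 at 8 h, against 3394 and 2918 in 4 h vehicle tumours. It was 1999, 2268 and 2149 at 24 h and 1596, 1472 and 1797 at 48 h, against 4227, 2533 and 3243 in vehicle tumours, with no overlap between late and vehicle arrays. The fitted log2 change was -0.61 at 24 h (adjusted p = 0.0011) and -1.01 at 48 h (adjusted p = 1.3e-06). It was lower at 48 h than at 24 h as well (log2 change -0.40, adjusted p = 0.035), a call lost without 24 h replicate 2, 24 h replicate 3, 48 h replicate 1 or 48 h replicate 3 (adjusted p up to 0.13), and with a variance prior without trend (adjusted p = 0.085). Resistant tumours had Pkm signals of 2821, 3324 and 2982 at 160 mg/kg and 1976, 2208 and 2001 at 40 mg/kg.

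Pgk1, phosphoglycerate kinase, changed by -0.998 at 24 h (adjusted p = 0.00082) and -0.76 at 48 h (adjusted p = 0.0056), with means of 1449 ± 124 and 1721 ± 273 against 3023 ± 1056 in vehicle tumours (SD, n = 3 each). Its 48 h call was lost without vehicle replicate 1 (adjusted p = 0.068). Pgam1, phosphoglycerate mutase, changed by -0.98 (adjusted p = 4.3e-05) and -0.70 (adjusted p = 0.00095) at these times. Eno2, the neuronal enolase, had signals of 29.4, 3.1 and 15.6 at 4 h and 21.3, 18.4 and 15.8 at 8 h, against 26.1 and 16.9 in 4 h vehicle tumours. It was 40.1, 26.9 and 25.6 at 24 h and 66.5, 63.1 and 64.4 at 48 h, against 8.3, 19.8 and 21.2 in vehicle tumours, and 10 of 23 arrays had it above their 40th percentile. At 48 h it rose by 1.34 on the log2 scale (adjusted p = 0.00066), beside the rise of the neuron marker sum given above, whose part was not tested. Resistant tumours had Eno2 signals of 20.8, 24.0 and 38.6 at 160 mg/kg and 11.9, 18.4 and 34.6 at 40 mg/kg. Gapdh, glyceraldehyde 3-phosphate dehydrogenase, was read only by control probe sets, and its 3′ probe set gave 5279.7, 5571 and 5314 at 24 h and 4929.8, 4004 and 5037 at 48 h, against 8344, 6549.8 and 6618 in vehicle tumours, untested.

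Of the genes that turn pyruvate into lactate or move it, 3 of 6 fell at both late times. The share of all genes called lower was 14.4% at 24 h and 21.3% at 48 h. Ldha, the lactate dehydrogenase subunit that favours lactate, fell by more than any other member of its group that was called. Its signal was 5652, 4970.2 and 4262 at 4 h and 3536, 3307 and 4169 at 8 h, against 5069 and 3198 in 4 h vehicle tumours. It was 1412, 2084 and 1929 at 24 h and 1688, 1526 and 1681 at 48 h, against 5965, 3617 and 4306 in vehicle tumours. All late arrays lay below all vehicle arrays, while the 4 h and 8 h arrays overlapped the 4 h vehicle arrays. As a log2 change this was -1.34 at 24 h (SE 0.18, adjusted p = 4.6e-06) and -1.47 at 48 h (SE 0.18, adjusted p = 6.0e-07), and both calls held under every other setting tried and without each array in turn. Resistant tumours had 3801, 4658 and 3511 at 160 mg/kg and 2014, 2418 and 2909 at 40 mg/kg. Ldhb, the subunit of oxidative tissues, was not called by its chosen probe set (0.22 at 24 h and 0.14 at 48 h), and 2 of 3 further probe sets were called higher at 24 h. The chosen probe set was called higher with the 4 h vehicle as control at both times (adjusted p = 0.0016 and 0.0025) and with all 5 vehicle arrays as control at 24 h (adjusted p = 0.027).

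Slc16a3, the lactate exporter MCT4, had signals of 139.8, 112 and 64 at 4 h and 75.6, 37.1 and 59.2 at 8 h, against 91.7 and 92.3 in 4 h vehicle tumours. It was 50.2, 50.3 and 14.4 at 24 h and 56.2, 17.9 and 19.2 at 48 h, against 136, 56.8 and 72.4 in vehicle tumours, without overlap. Its log2 change was -0.96 (adjusted p = 0.035) at 24 h and -1.17 (adjusted p = 0.0074) at 48 h. The 24 h call was lost without 24 h replicate 3, vehicle replicate 1 or vehicle replicate 3 (adjusted p up to 0.23), and with no filter or a variance prior without trend (adjusted p up to 0.051), and the 48 h call without vehicle replicate 1 (adjusted p = 0.068). Resistant tumours had 68.9, 112 and 79.7 at 160 mg/kg and 48.8, 53.5 and 46.1 at 40 mg/kg. Slc16a1, the widely expressed lactate transporter MCT1, changed by -0.67 (adjusted p = 0.0074) and -0.74 (adjusted p = 0.0022) at these times, the 24 h call being lost without vehicle replicate 2 (adjusted p = 0.058).

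Pdk1, the kinase that shuts pyruvate out of mitochondria, was uneven among controls. Its signal was 248, 241 and 143 at 4 h and 128, 57.9 and 142 at 8 h, against 329 and 100.2 in 4 h vehicle tumours. It was 110.5, 67.8 and 63.9 at 24 h and 52.0, 113 and 123 at 48 h, against 319.8, 85.6 and 208 in vehicle tumours, and neither late change was called (-1.06 with adjusted p = 0.076, and -0.88 with adjusted p = 0.12). The 24 h change was called in a fit to the compared arrays alone, with the run of title identifiers as a block, with all 5 vehicle arrays as control and without vehicle replicate 2 (adjusted p = 0.015 to 0.050), and the 48 h change without vehicle replicate 2 (adjusted p = 0.022). Resistant tumours had 138, 223 and 98.9 at 160 mg/kg and 17.9, 57.6 and 70.3 at 40 mg/kg, and the 40 mg/kg arrays all lay below vehicle. Another Pdk1 probe set read 35.6, 29.4 and 38.1 at 24 h, all below the 203.2, 58.2 and 161.7 of vehicle tumours. At 48 h it read 63.2, 77.7 and 72.5, which overlapped vehicle. The remaining Pdk1 probe sets overlapped vehicle at both late times. Pdk3, another such kinase, gave -0.36 at 24 h and -0.48 at 48 h and was not called. Its 48 h change was called with quantile normalization, in a fit to the compared arrays alone and with all 5 vehicle arrays as control (adjusted p = 0.020 to 0.029).

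Of the oxygen-sensing genes, the sensor Egln3 fell and the transcript of Hif1a did not pass the test in sensitive tumours. Hif1a encodes the oxygen-labile subunit, which is controlled mainly as protein, and protein was not measured. Hif1a signal was 969.5, 1132 and 1128 at 4 h and 941, 1026 and 939 at 8 h, against 1262 and 1183 in 4 h vehicle tumours. It was 1062, 944 and 1043 at 24 h and 1173, 1043 and 1264 at 48 h, against 848, 1027 and 1082 in vehicle tumours, with overlap in both. This gave a log2 change of 0.049 at 24 h (95% interval -0.18 to 0.27) and 0.23 at 48 h (0.01 to 0.46). The 48 h change was called higher with quantile normalization and without 48 h replicate 3 (adjusted p = 0.011 to 0.048). A dimmer Hif1a probe set was called lower at 24 h (log2 change -0.76, adjusted p = 0.018), opposite in sign to the chosen one. Resistant tumours had Hif1a signals of 907, 1145 and 1118 at 160 mg/kg and 1197, 1376 and 1242 at 40 mg/kg. Egln1, the main HIF prolyl hydroxylase, gave -0.10 at 24 h and -0.28 at 48 h and was not called. Its 48 h change was called with all 5 vehicle arrays as control and without vehicle replicate 2 (adjusted p = 0.014 to 0.032).

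Egln3, a HIF prolyl hydroxylase that is itself induced by HIF, had signals of 411, 424 and 246 at 4 h and 158, 171 and 208 at 8 h, against 388 and 188 in 4 h vehicle tumours. It was 82.2, 77.6 and 92.3 at 24 h and 52.0, 48.2 and 47.2 at 48 h, against 436, 110.3 and 262 in vehicle tumours. The 24 h and 48 h arrays all lay below the lowest vehicle array, and vehicle replicates spanned a wide range. On the log2 scale the change was -1.33 at 24 h (SE 0.33, adjusted p = 0.0036) and -1.95 at 48 h (SE 0.33, adjusted p = 4.2e-05). The second Egln3 probe set was called lower at both times (-1.09 and -1.30). Resistant tumours had 175, 325 and 215 at 160 mg/kg and 42.4, 42.4 and 87.3 at 40 mg/kg, and the doses did not overlap.

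Of the 11 other hypoxia response genes tested, 4 fell and 0 rose at 24 h, and 6 fell and 2 rose at 48 h. Over all genes 14.4% fell and 19.7% rose at 24 h, and 21.3% fell and 25.1% rose at 48 h. Higd1a, a mitochondrial protein induced by hypoxia, had signals of 1483, 1425 and 1176 at 4 h and 932, 807 and 921 at 8 h, against 1609 and 1157 in 4 h vehicle tumours. It was 547, 601 and 726 at 24 h and 491, 514 and 491 at 48 h, against 1552, 974 and 1164 in vehicle tumours, without overlap. Its log2 change was -0.94 (adjusted p = 5.5e-05) at 24 h and -1.25 (adjusted p = 6.0e-07) at 48 h, although 2 further Higd1a probe sets were called at neither time (-0.59 and -0.66 at 24 h, -0.44 and -0.57 at 48 h). Resistant tumours had 1158, 1326 and 884 at 160 mg/kg and 804, 786 and 852 at 40 mg/kg.

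P4ha1, a collagen prolyl hydroxylase subunit, had signals of 800.2, 684 and 548 at 4 h and 529, 478 and 519.6 at 8 h, against 1033 and 545 in 4 h vehicle tumours. It was 315, 351 and 404 at 24 h and 319, 318 and 333 at 48 h, against 888, 603 and 669 in vehicle tumours, without overlap. It fell by a log2 change of -0.97 (adjusted p = 0.0013) at 24 h and -1.10 (adjusted p = 0.00022) at 48 h. Resistant tumours had P4ha1 signals of 405, 815 and 488 at 160 mg/kg and 358, 511 and 450.5 at 40 mg/kg.

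Ankrd37, an ankyrin repeat protein induced by HIF, had signals of 128, 116 and 77.1 at 4 h and 81.3, 56.2 and 70.3 at 8 h, against 164 and 45.7 in 4 h vehicle tumours. It was 36.9, 37.3 and 35.3 at 24 h and 29.6, 30.5 and 22.7 at 48 h, against 128, 51.7 and 102 in vehicle tumours, without overlap. In the fit the log2 change was -0.997 (adjusted p = 0.031) at 24 h, a call lost without 24 h replicate 1, 24 h replicate 2, 24 h replicate 3, vehicle replicate 1 or vehicle replicate 3 (adjusted p up to 0.15), and with the 4 h vehicle as control (adjusted p = 0.063), and -1.27 (adjusted p = 0.0045) at 48 h. Resistant tumours had Ankrd37 signals of 67.2, 133 and 79.9 at 160 mg/kg and 24.7, 56.3 and 81.3 at 40 mg/kg.

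Bnip3, a mitophagy receptor induced by HIF, had signals of 1471, 1188 and 678 at 4 h and 589.5, 482 and 685 at 8 h, against 1435 and 439 in 4 h vehicle tumours. It was 430.1, 357 and 369 at 24 h and 524, 406 and 414 at 48 h, against 1511, 424 and 918 in vehicle tumours. Vehicle replicate 2 lay at the level of the drug arrays, and the late groups overlapped vehicle. The fitted log2 change was -1.10 at 24 h (adjusted p = 0.027) and -0.89 at 48 h, not called (adjusted p = 0.059). The 48 h change was called lower in a fit to the compared arrays alone, with the run of title identifiers as a block, with all 5 vehicle arrays as control and without vehicle replicate 2 (adjusted p = 0.0039 to 0.045). The 24 h call was lost without 24 h replicate 2, 24 h replicate 3, vehicle replicate 1 or vehicle replicate 3 (adjusted p up to 0.20), and with a variance prior without trend or the 4 h vehicle as control (adjusted p up to 0.080). Resistant tumours had Bnip3 signals of 935, 1129.9 and 749.9 at 160 mg/kg and 288, 471 and 579.7 at 40 mg/kg.

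Ddit4 (REDD1), an inhibitor of mTORC1 induced by hypoxia and other stresses, stood apart in its time course. Its signal was 3133, 2408 and 1774 at 4 h and 3251, 2943 and 3056 at 8 h, against 2256 and 1130.0 in 4 h vehicle tumours, and all 8 h arrays lay above both vehicle arrays without a call (log2 change 0.94, adjusted p = 0.067). It was called higher at 8 h in a fit to the compared arrays alone, with the run of title identifiers as a block, with all 5 vehicle arrays as control and without 4 h vehicle replicate 1 (adjusted p = 0.0050 to 0.027). It was 1787, 1827 and 2054 at 24 h and 498, 552 and 501 at 48 h, against 2279.9, 1059 and 1423 in vehicle tumours. The 24 h arrays overlapped vehicle, whereas the 48 h arrays lay below every array of both groups. The log2 change at 48 h was -1.52 against vehicle (adjusted p = 2.6e-05) and -1.84 against 24 h (adjusted p = 1.1e-05). Resistant tumours had 1253, 1718 and 1229.6 at 160 mg/kg and 817, 1401 and 798 at 40 mg/kg.

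Vegfa, the angiogenic growth factor, had signals of 599, 626 and 318 at 4 h and 374, 262 and 373 at 8 h, against 819 and 312 in 4 h vehicle tumours. It was 309, 286 and 368 at 24 h and 206, 264 and 167 at 48 h, against 602, 293 and 450.2 in vehicle tumours, and the 48 h arrays all lay below vehicle. As a log2 change this was -0.99 at 48 h (adjusted p = 0.012) and -0.41 at 24 h, not called (adjusted p = 0.35), and the 48 h call was lost without 48 h replicate 4 or vehicle replicate 1 (adjusted p up to 0.087). Resistant tumours had Vegfa signals of 526, 482 and 269 at 160 mg/kg and 276, 395 and 279.8 at 40 mg/kg. Kdm3a, a histone demethylase induced by HIF, was lower at 48 h (log2 change -0.59, adjusted p = 0.020), a call lost without 48 h replicate 3 or vehicle replicate 1 (adjusted p up to 0.16), and with the 4 h vehicle as control (adjusted p = 0.24).

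Car9, the membrane carbonic anhydrase used as a marker of hypoxia, was near the floor of the array. Its signal was 2.4, 14.9 and 8.5 at 4 h and 3.1, 32.1 and 4.5 at 8 h, against 19.3 and 28.4 in 4 h vehicle tumours. It was 11.0, 3.2 and 9.2 at 24 h and 47.6, 44.0 and 59.5 at 48 h, against 15.8, 27.5 and 3.8 in vehicle tumours, and 7 of 23 arrays had it above their 40th percentile. The 48 h arrays lay above vehicle and 24 h arrays. Its log2 change was 1.13 against vehicle (adjusted p = 0.029), a call lost without 48 h replicate 1, 48 h replicate 4, vehicle replicate 1 or vehicle replicate 3 (adjusted p up to 0.16), and with an offset of 1, quantile normalization or the 4 h vehicle as control (adjusted p up to 0.23), and 1.49 against 24 h (adjusted p = 0.0099), lost without 24 h replicate 2 (adjusted p = 0.051). Resistant tumours had Car9 signals of 19.3, 65.6 and 6.0 at 160 mg/kg and 15.4, 4.3 and 8.9 at 40 mg/kg. Ndrg1, a stress-induced gene, was higher at 48 h (log2 change 0.67, adjusted p = 0.043), a call lost without 48 h replicate 1, 48 h replicate 4, vehicle replicate 2 or vehicle replicate 3 (adjusted p up to 0.26), and with no filter, quantile normalization, a variance prior without trend, the replicate number as a block, all 5 vehicle arrays as control or the 4 h vehicle as control (adjusted p up to 0.77). Adm, a vasodilator peptide gene, and Hilpda, a lipid droplet protein gene, were not called at any drug time, with changes from -0.28 to 0.18.

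**Figure D3:**
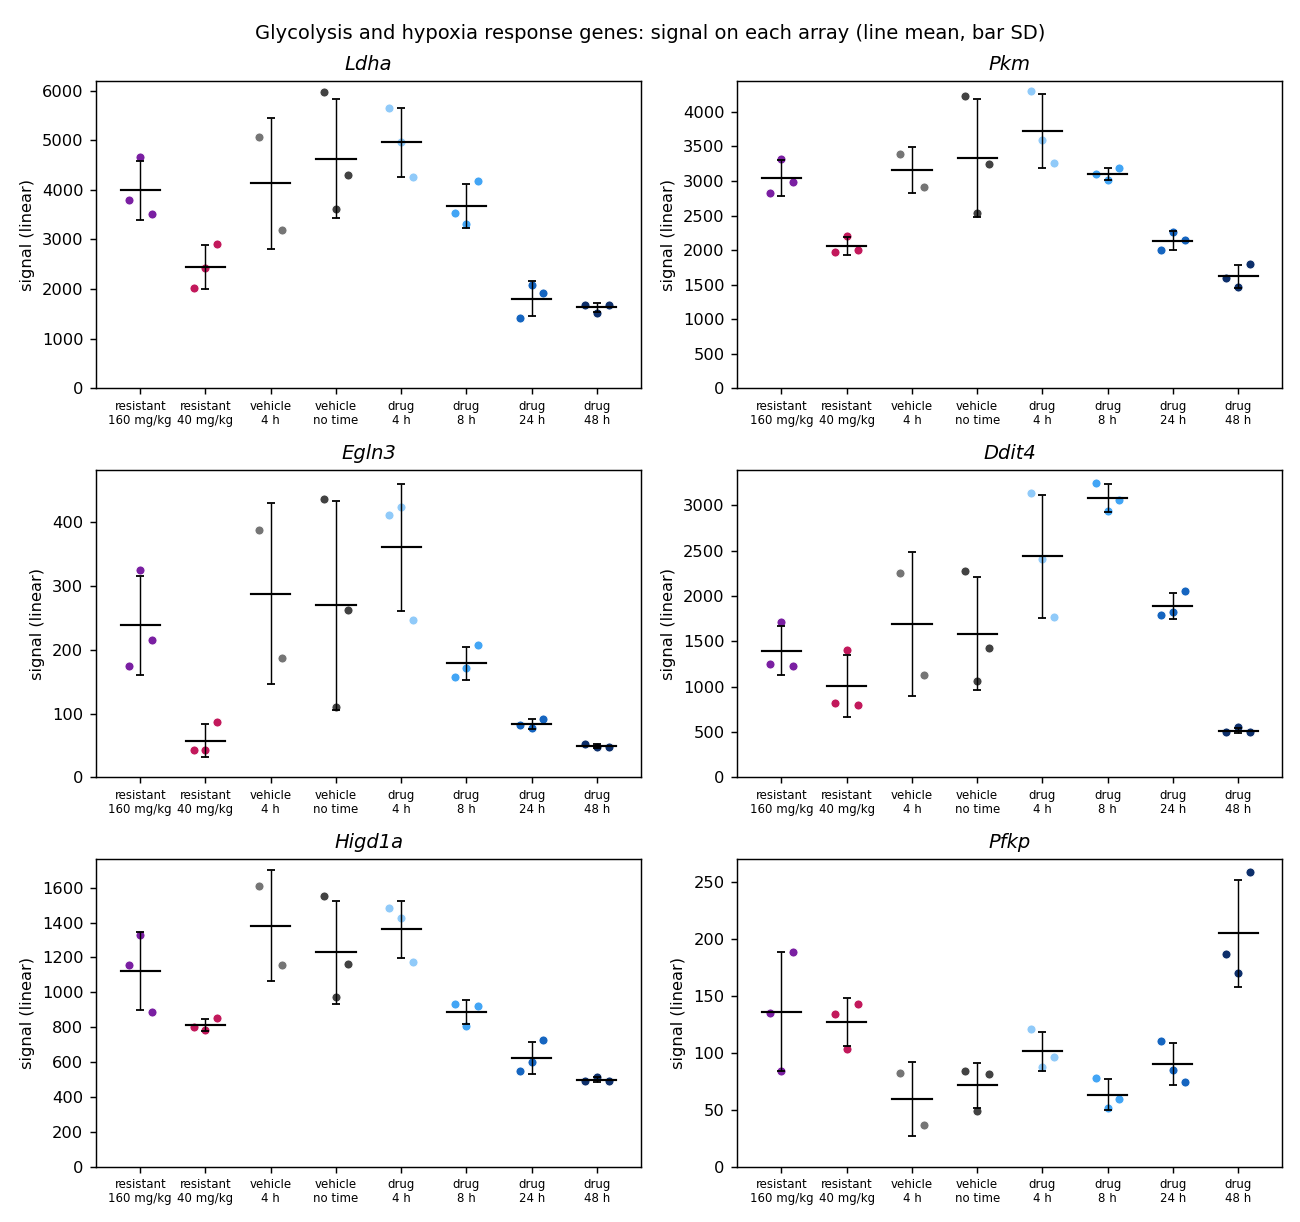
Signal (linear axes from 0, arbitrary units) of Ldha, Pkm, Egln3, Ddit4, Higd1a and Pfkp on each array by group, with group means and SD bars. Ldha lies between 1412 and 2084 on the 24 h and 48 h arrays and at 3617 or above in vehicle tumours, and Ddit4 lies between 498 and 552 at 48 h, below all arrays of every other group.

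Other measured features moved with the late falls. Of 19 measured genes of mitosis all 19 were called lower at both late times (median log2 change -3.51 at 24 h and -2.92 at 48 h). They summed to 1802 to 2375 at 24 h and 2324 to 3543 at 48 h, against 26781 to 28070 in vehicle tumours. At 4 and 8 h 0 of these 19 were called. Of the 14 genes called lower at 24 h all but Bnip3 were called lower at 48 h, both times against the same vehicle arrays. The actin 3′ to 5′ ratio was above vehicle at 24 h and below it at 48 h, and its part in either comparison was not tested. The 48 h and vehicle arrays, and the resistant ones, came from 1 run of title identifiers, whereas 1 of the 3 arrays at 24 h came from another. All 4 h and 8 h drug arrays and 4 h vehicle replicate 2 came from that other run. The 4 h vehicle replicate 1 was alone in a further run. The macrophage and neuron sums given above were higher at both late times than in vehicle tumours, and the 10 fibroblast genes summed to 33547 to 47451 at 48 h against 3437 to 8610 in vehicle tumours. The part of these in the falls was not tested.

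Controls varied in these genes together. Vehicle replicate 1 lay above its group mean for 30 of the 36 genes (median deviation 0.38 on the log2 scale), and vehicle replicate 2 for 7 (median -0.33). Among 4 h vehicle arrays, replicate 1 lay above the group mean for 32 of 36 (median 0.29). Over all genes these 3 arrays deviated by -0.01 to 0.01 at the median. The median SD of the 36 genes was 0.389 in vehicle and 0.417 in 4 h vehicle tumours, against 0.179 and 0.157 over all genes. In sensitive tumours it was 0.258 at 4 h, 0.129 at 8 h, 0.141 at 24 h and 0.140 at 48 h, beside 0.172, 0.159, 0.175 and 0.187 over all genes. Vehicle replicate 2, the low one, was also the vehicle array with the high muscle sum, and the part of muscle in its low values was not tested. The 4 h vehicle and vehicle groups differed in 0 of the 36 genes, with 3 at an unadjusted p under 0.05 (background 0.134% lower and 0.0668% higher).

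**Figure D4:**
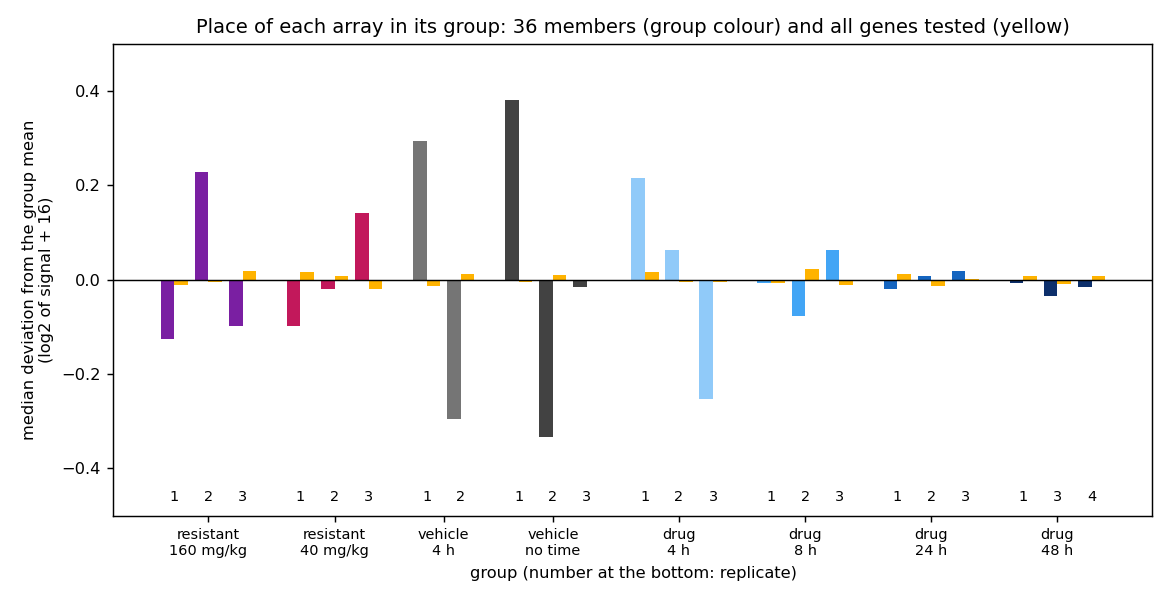
Median deviation from the group mean (log2 scale) of the 36 genes on each array, coloured by group, beside the same over all tested genes in yellow. The bars of vehicle replicates 1 and 2 reach 0.38 and -0.33, while those over all genes stay between -0.02 and 0.02.

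Between the drug times, the 8 h arrays differed from the 4 h arrays in 0 of the 36 genes, with 11 at an unadjusted p under 0.05 and a median of -0.35 (background 0.601% lower and 0.127% higher). The 48 h arrays differed from the 24 h arrays in 3 lower genes, Aldoa, Pkm and Ddit4, and 2 higher ones, Pfkp and Car9, against a background of 13.1% lower and 11.9% higher. These are 8.33% and 5.56% of the 36 genes.

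Resistant tumours were set against vehicle to see how the pathway stood in tumours that grew under drug. At 160 mg/kg 0 of the 36 genes was called and the median change was -0.02, with 5 genes at an unadjusted p under 0.05 (background 0.254% lower and 1.19% higher). Ndrg1 (log2 change 1.04, adjusted p = 0.052) was called with a 60th percentile filter, with the replicate number as a block, with the run of title identifiers as a block, without resistant 160 mg/kg replicate 2 and without vehicle replicate 1 (adjusted p = 0.030 to 0.047). At 40 mg/kg 8 genes were lower (22.2% of the 36) and 1 higher, with a median of -0.43, against a background of 4.45% lower and 5.39% higher. The lower genes were Egln3 (log2 change -1.83, adjusted p = 0.0012), Pdk1 (log2 change -1.72, adjusted p = 0.017), Ldha (log2 change -0.90, adjusted p = 0.0030), Tpi1 (log2 change -0.79, adjusted p = 0.010), Aldoa (log2 change -0.68, adjusted p = 0.015), Pkm (log2 change -0.66, adjusted p = 0.0028), Pgam1 (log2 change -0.63, adjusted p = 0.015) and Higd1a (log2 change -0.56, adjusted p = 0.029). All 3 arrays of the 40 mg/kg group lay below all vehicle arrays for each of these 8. They did so for 12 of the 36 and lay above for 2, against 11.7% and 13.1% of all genes. For the 8 called genes this lack of overlap is no separate support, since they were called on these arrays. Without vehicle replicate 1 the count of called genes was 3 in place of 9, and in a fit to the compared arrays alone it was 2, while Ldha, Egln3 and Pkm were called without each array in turn. The Tpi1 call was lost without vehicle replicate 1 (adjusted p = 0.097), and with a fit to the compared arrays alone (adjusted p = 0.051). That of Pdk1 was lost without resistant 40 mg/kg replicate 1, vehicle replicate 1 or vehicle replicate 3 (adjusted p up to 0.12), and with a fit to the compared arrays alone (adjusted p = 0.060). For Aldoa the call was lost without resistant 40 mg/kg replicate 2 or vehicle replicate 1 (adjusted p up to 0.14), and with a variance prior without trend, a fit to the compared arrays alone or the 4 h vehicle as control (adjusted p up to 0.064). For Pgam1 it was lost without resistant 40 mg/kg replicate 1 or vehicle replicate 1 (adjusted p up to 0.13), and with a variance prior without trend or a fit to the compared arrays alone (adjusted p up to 0.058). For Higd1a it was lost without resistant 40 mg/kg replicate 1, resistant 40 mg/kg replicate 2, vehicle replicate 1 or vehicle replicate 3 (adjusted p up to 0.20), and with quantile normalization, a variance prior without trend or a fit to the compared arrays alone (adjusted p up to 0.082). Hif1a was the gene called higher (log2 change 0.37, adjusted p = 0.040), a call lost without resistant 40 mg/kg replicate 2, resistant 40 mg/kg replicate 3, vehicle replicate 1 or vehicle replicate 2 (adjusted p up to 0.23), and with a variance prior without trend, a fit to the compared arrays alone, the run of title identifiers as a block, the most variable probe set, all 5 vehicle arrays as control or the 4 h vehicle as control (adjusted p up to 0.93), with a change of -0.066 by the most variable of its probe sets. Macrophage genes summed to 3636 to 13704 at 160 mg/kg and 10472 to 14577 at 40 mg/kg, against 1991 to 3443 in vehicle tumours. The mitosis genes summed to 15316 to 25257 at 160 mg/kg and 12539 to 19928 at 40 mg/kg, against 26781 to 28070 in vehicle tumours. Of 19, 18 were called lower at 40 mg/kg and 0 at 160 mg/kg. The part of either list in these changes was not tested.

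Between the doses, 7 of the 36 genes were higher at 160 mg/kg than at 40 mg/kg (19.4%) and 0 lower, against a background of 1.68% higher and 1.12% lower. The median change was 0.40, beside -0.01 over all genes. They were Egln3 (log2 change 1.80, adjusted p = 0.0030), Slc2a3 (log2 change 1.37, adjusted p = 0.00093), Ndrg1 (log2 change 1.32, adjusted p = 0.0051), Tpi1 (log2 change 0.77, adjusted p = 0.029), Ldha (log2 change 0.71, adjusted p = 0.041), Aldoa (log2 change 0.67, adjusted p = 0.035) and Pkm (log2 change 0.56, adjusted p = 0.024). All 3 arrays at 160 mg/kg lay above all 3 at 40 mg/kg for 15 of the 36 genes and below for 2, against 5.97% and 6.32% of all genes. A fit to these 6 arrays alone called 0 of the 36, and leaving out 160 mg/kg replicate 2 left 3 calls. Without 40 mg/kg replicate 2, 4 calls were left. Egln3, Slc2a3 and Ndrg1 were called without each array in turn, but Ndrg1 was not called by the most variable of its probe sets (adjusted p = 0.084). The Tpi1 call was also lost without resistant 160 mg/kg replicate 2, resistant 40 mg/kg replicate 1 or resistant 40 mg/kg replicate 2 (adjusted p up to 0.16), and with a variance prior without trend or a fit to the compared arrays alone (adjusted p up to 0.19). The Pkm call was lost without resistant 160 mg/kg replicate 2, resistant 40 mg/kg replicate 1 or resistant 40 mg/kg replicate 3 (adjusted p up to 0.12), and with a variance prior without trend or a fit to the compared arrays alone (adjusted p up to 0.20). That of Aldoa was lost without resistant 160 mg/kg replicate 2, resistant 160 mg/kg replicate 3, resistant 40 mg/kg replicate 2 or resistant 40 mg/kg replicate 3 (adjusted p up to 0.16), and with no filter, a variance prior without trend or a fit to the compared arrays alone (adjusted p up to 0.17). The Ldha call was lost without resistant 160 mg/kg replicate 1, resistant 160 mg/kg replicate 2, resistant 40 mg/kg replicate 1 or resistant 40 mg/kg replicate 2 (adjusted p up to 0.19), and with no filter, a variance prior without trend, a fit to the compared arrays alone or the replicate number as a block (adjusted p up to 0.25). Of the marker lists, 3 of 10 astrocyte and 3 of 13 progenitor and medulloblastoma genes were called higher at 160 mg/kg. The astrocyte genes summed to 4878 to 5728 at 160 mg/kg and 3231 to 4068 at 40 mg/kg, without overlap, and the progenitor and medulloblastoma genes to 20164 to 20868 and 17493 to 20759. The part of these lists in the difference was not tested.

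**Figure D5:**
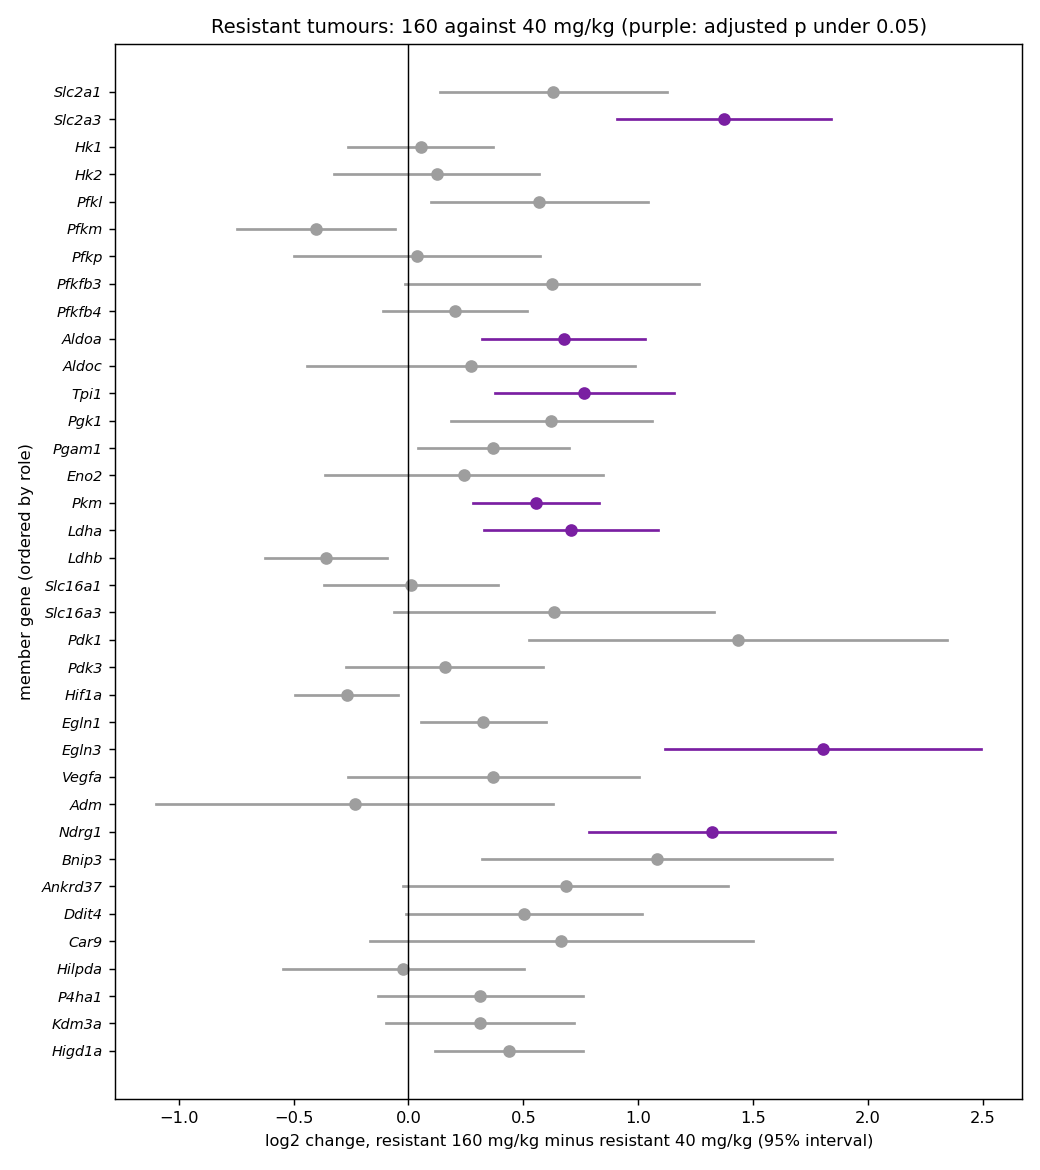
Log2 change of each of the 36 genes between resistant tumours at 160 mg/kg and at 40 mg/kg, with 95% intervals, purple where the limma adjusted p was under 0.05. Egln3 at 1.80, Slc2a3 at 1.37 and Ndrg1 at 1.32 are the furthest to the right among the called genes, and 0 called genes lie left of 0.

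At the same dose of 40 mg/kg, resistant tumours were set against sensitive tumours at 48 h. Here 4 of the 36 genes were higher (11.1%) and 8 lower (22.2%), against a background of 17.8% higher and 19.2% lower. The higher genes were Hk2 (log2 change 2.18, adjusted p = 4.0e-08), Ddit4 (log2 change 0.89, adjusted p = 0.0078), Higd1a (log2 change 0.69, adjusted p = 0.0014) and Ldha (log2 change 0.57, adjusted p = 0.021). Among the lower were Slc2a3 (log2 change -1.80, adjusted p = 1.3e-06), Car9 (log2 change -1.39, adjusted p = 0.0099), Eno2 (log2 change -1.14, adjusted p = 0.0039) and Ndrg1 (log2 change -0.96, adjusted p = 0.0062), with Pfkfb4, Tpi1, Hk1 and Pfkm between -0.78 and -0.67. The Hk2 call held without each array in turn, while the Ldha call was lost without resistant 40 mg/kg replicate 3 or 48 h replicate 3 (adjusted p up to 0.12), and with a variance prior without trend (adjusted p = 0.053). The Ddit4 call was lost without resistant 40 mg/kg replicate 2 (adjusted p = 0.072). Of the macrophage genes 13 of 14 were called lower in the resistant group (median log2 change -1.62). They summed to 10472 to 14577 in resistant tumours, against 31648 to 42369 at 48 h. All 19 measured mitosis genes were called higher (median log2 change 2.17). Their sums were 12539 to 19928 in resistant tumours, against 2324 to 3543 at 48 h. Neuron sums were 4166 to 6702 and fibroblast sums 14850 to 19740 in the resistant group, against 19732 to 21136 and 33547 to 47451 at 48 h. Muscle sums overlapped, but 7 of 19 muscle genes were called lower in the resistant group (36.8%, median log2 change -1.91). Of 15 endothelial genes 7 were called lower (46.7%). The share over all genes was 19.2%. The part of these lists in the differences was not tested.

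A further list of glycolysis and hypoxia genes, kept apart from the 40, gave 69 tested of 82 listed. At 4 h 0 were called, against 0.26% lower and 0.0868% higher over all genes. At 8 h 2 were lower (2.9%) and 0 higher, against 2.48% and 2.12% of all genes. At 24 h 18 were higher (26.1%) and 6 lower (8.7%), against 19.7% and 14.4% of all genes. At 48 h 22 were higher (31.9%) and 9 lower (13%), against 25.1% and 21.3%. Against vehicle, 1 was higher (1.45%) and 0 lower in resistant tumours at 160 mg/kg, near the 1.19% and 0.254% of all genes. At 40 mg/kg 5 were higher (7.25%) and 4 lower (5.8%), near the 5.39% and 4.45% of all genes. In contrast to Hk2, the myeloid hexokinase Hk3 rose by 1.68 at 24 h and 3.06 at 48 h (adjusted p = 0.00015 and 1.7e-08). Pdk4, the pyruvate dehydrogenase kinase of fasting and fat use, rose by 2.23 and 1.58 (adjusted p = 0.00051 and 0.0065). Hmox1, haem oxygenase, rose by 1.46 at 24 h, 4.14 at 48 h, 2.75 in resistant tumours at 160 mg/kg and 3.23 at 40 mg/kg, each called. Epas1, the HIF subunit prominent in endothelium, rose by 1.15 and 2.18, the glycogen phosphorylase Pygl by 2.56 at 48 h, the lipase inhibitor Angptl4 by 3.04 and 2.79, and Lox, a collagen cross-linking enzyme, by 1.57 and 2.39. Mif, a cytokine gene, fell by 1.17 at 24 h and by 1.48 at 48 h on the log2 scale, Car12, a carbonic anhydrase, changed by -1.90 and Fam162a, a HIF target, by -1.13 at 48 h. The muscle enzymes Pgam2 and Pygm rose at 24 h by 2.30 and 1.78, beside the muscle sum given above. In resistant tumours at 40 mg/kg the transferrin receptor Tfrc changed by -1.16 (adjusted p = 9.5e-05), and between the doses the adenylate kinase Ak4 was lower at 160 mg/kg (log2 change -1.16, adjusted p = 0.00035). The genes named here were picked from the called ones after their values were seen. In sensitive tumours at 24 and 48 h, marker sums of macrophages, fibroblasts and neurons, and the mitosis sum, moved with these genes as with the members. Of 19 muscle genes 17 were called higher at 24 h (89.5%) and 2 at 48 h (10.5%), against 19.7% and 25.1% of all genes. In resistant tumours at 160 mg/kg 0 of the muscle genes were called against vehicle. The 15 endothelial genes summed to 1800 to 2379 at 24 h and 2836 to 4116 at 48 h, against 796.5 to 1504 in vehicle tumours. In resistant tumours the 3 measured erythroid genes summed to 181 to 730 at 160 mg/kg and 220.5 to 499 at 40 mg/kg, against 45.3 to 81.2 in vehicle tumours. The part of all these lists was not tested.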

How the data were processed

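The deposited values are 1 linear signal intensity per probe set and array, which the authors made with MAS5 (version not given), per the submitters' processing notes. Each array had a 2% trimmed mean of 150, to which the authors must have scaled it. The study's design text names the 430A 2.0 array, whereas the 45101 probe sets match the larger 430 2.0 array. Per the labels, RNA came from frozen tumour tissue. All 23 columns were mapped to samples, grouped by the description label. Detection calls and probe-level values were not used here.

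Probe sets were named from the supplied annotation (34958 with 1 symbol, 932 with several, 9211 with none), and 64 control probe sets were left out of the tests. Intensities were analysed as log2(signal + 16), and a probe set was tested if 2 or more arrays had it above their 40th percentile. A mean for each of 8 groups was fitted to all arrays with limma 3.58.1 (lmFit, contrasts.fit, eBayes with trend) in R 4.3.3, with two-sided p-values adjusted by Benjamini-Hochberg over 35069 probe sets in each of 11 comparisons. The fit recovered the known signs of simulated data on which it was tested. In those data each probe set varied independently, so deviations shared by the members, as seen in the controls, were not covered. A gene was represented by its brightest probe set (mean log2 signal).

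The members and lists were chosen with earlier results of these data known. Values on every array are given for members called against vehicle with an absolute log2 change of 1 or more, and for Hif1a, Hk1, Hk2, Vegfa, Ldha and Pkm. Of other genes, Gli1 is named, and some of the called genes of the further list with a change of 1 or more. Promoter windows are RefSeq's. Alternatives were offsets of 1 and 64, no filter, a 60th percentile filter, eBayes without trend, quantile normalization, only the compared arrays, replicate number or title run as a block, the most variable probe set, all 5 vehicle arrays or the 4 h vehicle as control, and leaving out each array. Same-numbered arrays did not deviate together, with correlations from -0.10 to 0.08.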

Additional observations from a re-analysis of the deposited data

Results flagged for a closer look

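For 5 members the 48 h tumours differed from the 24 h tumours in a direct test of the 2 groups, by limma's adjusted p. The test had no control in it, since no vehicle array was labelled with either time. The groups also differed in mean actin 3′ to 5′ log2 ratio, 1.65 at 24 h and 0.918 at 48 h. Macrophage genes summed to 4111 to 6888 at 24 h and 31648 to 42369 at 48 h. Muscle genes summed to 14018 to 19077 at 24 h and 2320 to 18744 at 48 h. The part of any of these was not tested. Pfkp was higher at 48 h by a log2 change of 1.05 (adjusted p = 0.0048) and Car9 by 1.49 (adjusted p = 0.0099), although Car9 lies near the floor of the array. Ddit4 gave -1.84 (adjusted p = 1.1e-05), Aldoa -0.71 (adjusted p = 0.0041) and Pkm -0.40 (adjusted p = 0.035), all lower at 48 h. The Pkm and Car9 calls were lost without single arrays, as given above. Of the 36 genes 8.33% were lower and 5.56% higher at 48 h, less than the 13.1% and 11.9% of all genes.

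For 7 members the 2 doses in resistant tumours differed in a direct test of 160 mg/kg against 40 mg/kg, all of them higher at 160 mg/kg. The log2 changes were 1.80 for Egln3 (adjusted p = 0.0030), 1.37 for Slc2a3 (adjusted p = 0.00093), 1.32 for Ndrg1 (adjusted p = 0.0051), 0.77 for Tpi1 (adjusted p = 0.029), 0.71 for Ldha (adjusted p = 0.041), 0.67 for Aldoa (adjusted p = 0.035) and 0.56 for Pkm (adjusted p = 0.024). In a fit to these 6 arrays alone 0 of the 7 were called, and Tpi1, Ldha, Aldoa and Pkm were each lost without 3 or 4 of the arrays, left out in turn. Groups of 3 or fewer arrays were too small for a search for single outlying arrays.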

How the results depend on the processing

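The count of called members against vehicle stayed within 1.5 times its reported value of 17 at 24 h and 25 at 48 h under every alternative, with ranges of 14 to 19 and 18 to 27 when 1 array was left out, and the 12 calls between resistant 40 mg/kg and 48 h tumours ranged from 11 to 14. At 4 h the count of 1 became 0 without trend and with the title run as a block, and ranged from 0 to 1 with an array left out. At 8 h the count of 2 became 1 without trend, with the replicate block and with the most variable probe set, 4 with only the compared arrays and 5 with all 5 vehicle arrays, with 1 to 3 when an array was left out. Between 8 and 4 h the count of 0 became 4 with only the compared arrays and 1 with the replicate block. Between 48 and 24 h the count of 5 became 8 with only the compared arrays, and 3 to 5 with an array left out. For resistant tumours at 40 mg/kg against vehicle, the count of 9 became 5 without trend, 2 with only the compared arrays and 15 with all 5 vehicle arrays, and 3 to 11 with an array left out. For 160 mg/kg against vehicle the count of 0 became 1 with the 60th percentile filter, the replicate block and the title run block, and 0 to 1 with an array left out. Between the doses the count of 7 became 3 without trend and 0 with only the compared arrays, and 3 to 8 with an array left out. The replicate block, whose numbers are not shown to pair samples, changed no other count by more than 1.5 times. Where an array left out leaves 1 vehicle array at 4 h, its variance is taken from the other groups. Hif1a turned sign with the most variable probe set, at -0.76 at 24 h and -0.066 in resistant tumours at 40 mg/kg. Over all members, comparisons and alternatives, 6317 values kept direction and side of the threshold, 146 lost a call, 90 gained one and 2 turned sign. The causes were not tested. The 4 h vehicle as control for resistant tumours was chosen after seeing the data. Signal near the background limits Car9, Eno2 and Aldoc.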

Other observations

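More genes of the further list were called in sensitive tumours, and those given here were picked from the called ones after their values were seen. At 24 h the higher ones included Slc2a4, the insulin-responsive glucose transporter (log2 change 1.08, adjusted p = 0.0018), Pfkfb2, which makes or removes the activator of phosphofructokinase (log2 change 1.03, adjusted p = 0.0010), and Tigar, a phosphatase that opposes that activator (log2 change 1.16, adjusted p = 9.0e-06). At 48 h they included Slc16a7, the pyruvate transporter MCT2 (log2 change 1.35, adjusted p = 0.0041), and Stbd1, a glycogen-binding protein (log2 change 1.05, adjusted p = 0.012). The collagen hydroxylase Plod1 (log2 change 1.31, adjusted p = 8.2e-05), Anxa2, annexin A2 (log2 change 2.32, adjusted p = 8.6e-07), and the growth factor Pdgfb (log2 change 1.05, adjusted p = 0.0013) rose at 48 h, and the repressor Bhlhe40 fell at 24 h (log2 change -1.06, adjusted p = 0.020). Every array of the drug group lay outside the vehicle range for each of these genes. They were picked as called with a log2 change of 1 or more, so this lack of overlap is no separate support. Eno3, also called higher at 24 h (log2 change 1.14, adjusted p = 0.030), had arrays that overlapped vehicle. At 24 h all drug arrays lay above vehicle for 28.6% of all genes and below it for 19.9%. At 48 h these shares were 30.4% and 25.8%. The part of the marker sums given above was not tested.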
